A study of Mus musculus with 386 samples.

Results

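A group of 44 genes of the cell cycle, chosen by symbol, was followed through a set of mouse tissue arrays. Each gene was read from the probe cluster annotated to its symbol alone, and from the cluster of highest mean where there were several. In this way 39 of the 44 genes were measured, among 18820 genes with such a cluster. Ccnb1 was not listed in the annotation used here, and Foxm1, Kif20a, Nusap1 and Ube2c had only clusters shared with other genes, so no value is given for these 5. By role the 39 measured genes were 9 of 9 replication and nucleotide supply genes, 1 of 2 transcription factors, 10 of 11 mitotic cyclins and kinases, 1 of 2 genes of the anaphase-promoting complex, 10 of 10 chromosome and kinetochore genes and 8 of 10 spindle and cytokinesis genes.

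The mice were 6 F1 crosses (CASTxPWK, PWKxCAST, CASTxWSB, WSBxCAST, PWKxWSB and WSBxPWK, with the dam named first) and the 3 inbred strains behind them, CASTxCAST, PWKxPWK and WSBxWSB. All animals were 23 days old and untreated as far as the labels state. They were bred at one site from stock a few generations removed from Jackson Laboratory founders, and both sexes were used. RNA from brain, kidney, liver and lung was hybridised to Affymetrix Mouse Gene 1.1 ST arrays, giving 386 arrays, and 67 animals had all 4 tissues. Brain had 44 female and 41 male arrays, kidney 51 and 51, liver 49 and 52, and lung 50 and 48. A cross had 6 to 13 arrays in a tissue, and a cross and sex 2 to 7, and on arrays it is this number that limits the precision. Values are log2 signals, array medians lay between 5.89 and 6.36, and defining markers of neurons, proximal tubule, hepatocytes and alveolar epithelium averaged 12.33, 12.78, 13.30 and 12.50 log2 in brain, kidney, liver and lung. On 2 arrays the X-linked Xist signal went against the sex label, and arrays were checked by Xist alone. PWKxCAST brain replicate 9 was labelled female and had Xist 3.98 and Y-linked Eif2s3y 3.83. PWKxWSB liver replicate 8 was labelled male and had Xist 10.70 and Eif2s3y 4.53. These 2 arrays, called against their sex label below, were kept, and the counts that rest on them are given with and without them.

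Dividing cells copy their DNA in S phase and separate the copies in mitosis, and each phase has its own machinery. The MCM proteins form the helicase that opens DNA at replication origins, PCNA clamps the polymerase, and ribonucleotide reductase supplies nucleotides. Cyclin-dependent kinase 1 with its A and B cyclins then drives entry into mitosis, the Aurora, Polo-like and Bub kinases steer chromosome attachment, and the kinesins, anillin and centralspindlin divide the cell. Most of these transcripts are held down in resting cells by repressor complexes on their promoters: E2F sites are typical of S-phase genes, and a CCAAT box with a downstream cell cycle homology region is typical of mitotic genes. In the weeks after birth, mouse liver and kidney are still growing, whereas most brain neurons have stopped dividing.

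The promoters of the measured genes carried these elements more often than gene promoters at large. RefSeq's table for GRCm38.p6 held a promoter for 35 of the 39 genes (250 bases before to 50 after the start). Searched on both strands, CCAAT was in 28 of 35 (80.0%), against 41.1% of 27025 genes with a promoter. The cell cycle homology letters TTTGAA or TTTAAA were in 25 of 35 (71.4%), against 30.6%. E2F letters (GCGGGAA or GCGCGAA) were in 7 of 35 (20%), against 6.9%, and CCAAT with the homology letters together in 22 of 35 (62.9%), against 13.4%. No match of one motif overlapped one of another. The 8 replication genes with a promoter all held CCAAT, 5 held E2F letters and 3 the homology letters, whereas of the other 27 genes 22 held the homology letters and 2 the E2F letters. A match is a run of letters and not a tested site. This contrast is shown in 4 mitotic and 2 S-phase genes, 120 bases before to 30 after the start, 5′ to 3′ on the gene's strand. Motif matches are in capitals, and a match on the other strand appears as its reverse complement.
Ccnb2, chr9:70421525-70421674, minus strand: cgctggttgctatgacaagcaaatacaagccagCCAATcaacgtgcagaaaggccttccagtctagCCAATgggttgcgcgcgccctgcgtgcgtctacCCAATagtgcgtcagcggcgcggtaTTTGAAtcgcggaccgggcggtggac
Cdc20, chr4:118437314-118437463, minus strand: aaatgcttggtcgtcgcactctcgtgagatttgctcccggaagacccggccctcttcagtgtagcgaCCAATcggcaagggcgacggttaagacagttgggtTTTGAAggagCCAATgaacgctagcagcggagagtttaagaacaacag
Top2a, chr11:99024160-99024309, minus strand: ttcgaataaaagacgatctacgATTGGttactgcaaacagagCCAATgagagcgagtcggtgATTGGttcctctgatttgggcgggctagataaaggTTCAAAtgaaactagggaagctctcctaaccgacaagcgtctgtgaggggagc
Plk1, chr7:122159315-122159464, plus strand: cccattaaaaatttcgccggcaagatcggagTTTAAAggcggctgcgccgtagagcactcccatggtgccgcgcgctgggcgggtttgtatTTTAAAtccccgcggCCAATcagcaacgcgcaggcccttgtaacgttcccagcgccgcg
Mcm6, chr1:128359676-128359825, minus strand: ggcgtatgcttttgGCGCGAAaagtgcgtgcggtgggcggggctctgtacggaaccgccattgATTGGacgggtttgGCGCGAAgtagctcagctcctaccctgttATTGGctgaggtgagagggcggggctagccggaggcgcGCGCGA
Rrm1, chr7:102441575-102441724, plus strand: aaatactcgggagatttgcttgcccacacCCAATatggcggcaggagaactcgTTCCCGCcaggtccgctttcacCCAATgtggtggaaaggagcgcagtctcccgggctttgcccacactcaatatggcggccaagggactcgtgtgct
Ccnb2 (cyclin B2), Cdc20 (the activator of the anaphase-promoting complex), Top2a (topoisomerase II alpha, which untangles sister chromosomes) and Plk1 (Polo-like kinase 1) each held CCAAT together with homology letters and no E2F letters in these windows. The homology letters lay downstream of every CCAAT in Ccnb2 and Top2a. In Cdc20 (position -18) they lay between 2 CCAAT matches (-53 and -8). In Plk1 both homology matches (-89 and -29) lay upstream of the CCAAT (-14), the reverse order. Mcm6 (a helicase subunit) and Rrm1 (the large subunit of ribonucleotide reductase) held CCAAT and E2F letters. In Mcm6 the last capitals are the start of a match that runs past the window.

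Liver carried the highest signal of most of these genes and brain the lowest. The mean was highest in liver for 27 of the 39 genes, in lung for 8 (Mcm3, Mcm4, Pcna, Rrm1, E2f1, Bub1b, Ncaph and Kif23), in kidney for 3 (Mcm2, Rrm2 and Spag5) and in brain for Anln alone, and it was lowest in brain for 35. In a limma fit over all arrays, each tissue was set against the mean of the other 3, and a gene was called at an adjusted p under 0.05 over all 18820 genes. Liver was called higher for 35 genes and lower for 2, with a median difference of 0.70 log2 (all genes 0.07; 95.7% of all genes called, 51.2% higher). Brain was called lower for 36 and higher for 2, with a median of -1.15 (all genes -0.12; 92.9% called, 56.7% lower). Kidney was called higher for 23 and lower for 4, with a median of 0.26 (all genes -0.02, 88.3% of all genes called). Lung was called higher for 19 and lower for 10, with a median of 0.12 (all genes -0.12, 95.1% called). With so many genes called in every tissue, the counts say little about the members by themselves, and the medians are read beside those of all genes.

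Among the replication genes, liver was higher for 8 of 9 and brain lower for all 9 (median -1.49). Pcna had 9.63, 10.11 and 10.64 log2 in brain (lowest, median, highest array), 10.26, 10.74 and 11.09 in kidney, 10.23, 10.78 and 11.40 in livers, and lungs had 10.25, 10.82 and 11.19. The 4 tissues thus overlapped in Pcna, although the brain mean of 10.11 was lowest. Rrm2, the small and cell cycle regulated subunit of ribonucleotide reductase, had 7.72, 8.92 and 9.90 log2 in kidney, against 5.56, 6.34 and 6.82 in brain, 6.72, 8.80 and 10.35 in liver and 6.51, 7.51 and 8.16 in lung. Kidney exceeded the other tissues by 1.31 ± 0.05 log2 in Rrm2 (SE, adjusted p = 2.08e-81), with no overlap with brain and wide overlap with liver.

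All 10 mitotic cyclins and kinases were called higher in liver (median 1.05) and lower in brain (median -1.37). Ccna2, cyclin A2, had 5.93, 9.28 and 10.85 log2 in liver, against 5.92, 6.34 and 6.80 in brain, 6.81, 8.34 and 9.42 in kidney and 7.2, 7.98 and 8.92 in lung. Its liver excess over the other tissues was 1.53 ± 0.07 log2 (SE, adjusted p = 3.46e-62), and that of Cdk1, the kinase it activates, 1.52 ± 0.06 (adjusted p = 1.21e-82). The liver values of Ccna2 spread over 4.93 log2, so that the lowest livers stood at the brain level while the highest exceeded every array of the other tissues. Ccnb2 was lower in brain by a difference of -2.27 ± 0.08 (SE, adjusted p = 1.12e-97).

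The 10 chromosome and kinetochore genes showed the same order, all higher in liver (median 0.70) and all lower in brain (median -1.02). Mki67, whose Ki-67 protein coats mitotic chromosomes and marks cycling cells in histology, had 5.35, 7.94 and 9.50 log2 in liver, against 5.08, 5.55 and 6.25 in brain, 5.47, 7.0 and 8.53 in kidney and 6.44, 7.42 and 8.56 in lung. No lung array reached down to the highest brain array in Mki67, whereas liver and kidney arrays did. Ncaph, a subunit of the condensin complex that compacts chromosomes, was highest in lung, 1.26 ± 0.05 log2 above the other tissues (SE, adjusted p = 4.10e-79). Birc5, the survivin subunit of the chromosomal passenger complex, was lower in lung by -0.50 ± 0.05 (adjusted p = 2.23e-20).

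Spindle and cytokinesis genes were the least uniform, with 5 of 8 higher and 2 lower in liver, and 5 lower and 2 higher in brain. Anln encodes anillin, a scaffold of the cleavage furrow that is also found in myelin. It had 7.65, 8.55 and 9.10 log2 in brain, against 5.22, 6.59 and 7.82 in kidney, 4.76, 7.03 and 8.55 in livers and, in lungs, 6.45, 7.63 and 8.29. Its brain excess was 1.48 ± 0.06 (SE, adjusted p = 8.70e-73), while Ect2, the exchange factor that switches on RhoA at the same furrow, was lower in brain by -2.57 ± 0.06 (adjusted p = 2.79e-134). Kif23, the kinesin of centralspindlin, was highest in lung at 1.16 ± 0.04 above the other tissues (adjusted p = 1.26e-84). Spag5, a spindle and centrosome protein also called astrin, was lower in lung by -0.87 ± 0.04 (adjusted p = 2.63e-59) and was highest in kidney. In these bulk samples a lower signal from fewer dividing cells and one from less RNA per cell cannot be told apart.

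**Figure D1:**
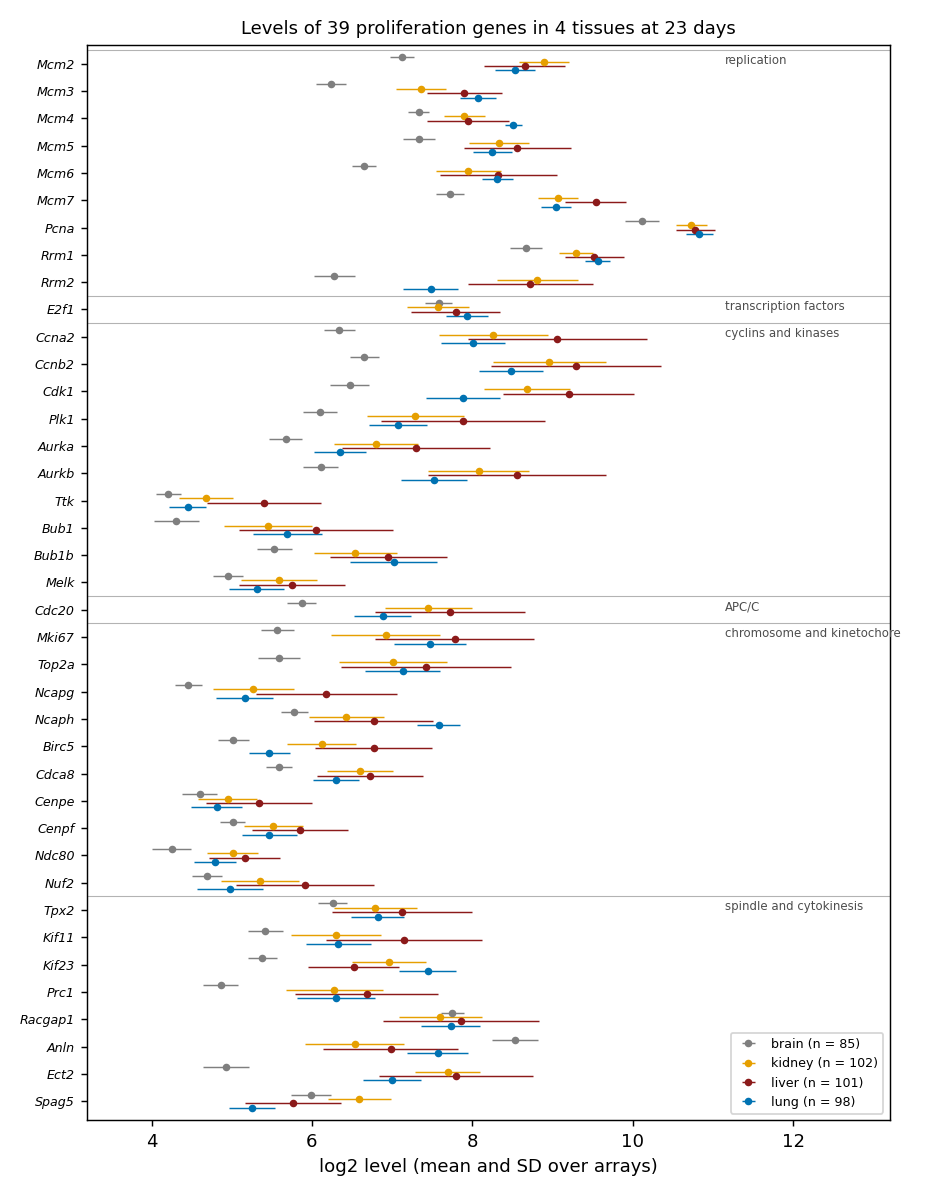
Mean log2 signal (horizontal axis) of each of the 39 genes (rows, grouped by role) in brain, kidney, liver and lung, with bars of 1 SD over the arrays of that tissue. Brain lies lowest for 35 genes and liver highest for 27, Anln is highest in brain, and the liver bars are wide.

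Genes of related function that were not among the members were read from lists of the same kind. Of 41 other replication and G1/S genes, liver was higher for 35 and lower for 5 (median 0.50), and of 56 other mitosis genes higher for 49 and lower for 6 (median 0.68). The 5 G1 cyclins and their kinases, which respond to growth signals before S phase, went another way: all 5 were higher in lung (median 1.27), and in liver 4 were lower and 1 higher. CDK inhibitors and other brakes on the cycle were higher in lung for 13 of 15 (median 0.57) and lower in liver for 10 (median -0.47). The 8 measured subunits of the DREAM repressor complex split evenly in liver, 4 higher and 4 lower.

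Within a tissue the members varied together in liver, kidney and lung, and weakly in brain. In brain 27 of the 39 members had a mean below the 40th percentile of all genes, against 14 in lung, 9 in kidney and 7 in liver. The part of this low signal in the brain values, here and below, was not tested. After removing the means of each cross and sex, the median residual SD of the members was 0.54 log2 in liver, against 0.23 for all genes, 0.36 in kidney against 0.18, 0.27 in lung against 0.17, and 0.18 in brain against 0.16. The median correlation over the 741 pairs of members was 0.80 in liver (range 0.28 to 0.96), 0.73 in kidney (0.15 to 0.94), 0.58 in lung (0.01 to 0.91) and 0.13 in brain (-0.39 to 0.69). These are correlations over arrays that share a tissue and a normalisation. Because of this, a member score is used below as a description: the mean over the 39 genes of the log2 value minus that gene's mean in the tissue. It spanned -1.54 to 1.37 in liver, -0.84 to 0.80 in kidney, -0.65 to 0.67 in lung and -0.24 to 0.16 in brain.

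Scores differed between runs of neighbouring animal numbers within a cross. The titles number the animals, and animals of a cross whose numbers follow at gaps of at most 3 form 26 runs. Whether a run is a litter, a cage or a day of collection the sources used here do not say. A run of 6 WSBxWSB males had liver scores between -1.54 and -1.30, whereas a run of 3 other WSBxWSB animals (2 females and 1 male) lay between 0.54 and 0.75. The same 6 males scored between -0.84 and -0.16 in kidney and between -0.65 and -0.36 in lung. In PWKxPWK a run of 4 animals (1 female, 3 males) had liver scores of 0.47 to 0.93, against -1.07 to -0.79 in a run of 3 females. In PWKxWSB a run of 7 animals averaged 0.86 in liver, and the other run, of 5, averaged -0.16. Strain and cross counts that 1 run moved most are given below also without that run.

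The first comparison asked whether the 3 inbred strains differed. By limma's F-test 11 members differed between the strains in brain (49.3% of all genes did), 31 in kidney (60.4%), 19 in liver (51.7%) and 34 in lung (63.3%). As shares of 39, brain and liver lay below or near the background, and kidney and lung above it. The counts depended on single runs. In lung the count was 19 without the run of 6 WSBxWSB males and 23 without the PWKxPWK run of 4. In kidney the count was 23 without a run of 3 WSBxWSB females. Taking runs as a random block gave 30 lung, 23 kidney, 12 liver and 11 brain members. Shares of all genes were taken in the full fits only, here and in the F1 and sex comparisons below. The counts without a run or with a block therefore do not show whether the excess over all genes changed. PWKxPWK exceeded WSBxWSB for 26 genes and fell below it for 1 in kidney (44.0% of all genes called in either direction); liver gave 14 higher and 0 lower (36.6%) and lung 31 and 3 (46.4%), with medians of 0.38, 0.45 and 0.39 log2. CASTxCAST exceeded WSBxWSB for 25 genes in kidney and fell below it for 0 (42.6%), while liver gave 18 higher and 0 lower (38.1%) and lung 15 and 2 (45.4%), with medians of 0.38, 0.46 and 0.15. Between CASTxCAST and PWKxPWK, CASTxCAST was higher for 9 and lower for 2 in kidney (43.2%), for 2 and 0 in liver (33.0%) and for 2 and 14 in lung (47.2%). In brain the pairs gave 2 higher and 6 lower for CASTxCAST against PWKxPWK (29.0%), 5 and 3 for CASTxCAST against WSBxWSB (37.7%) and 7 and 3 for PWKxPWK against WSBxWSB (28.8%). The 3 pairs share their strains, so these counts are not independent.

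In liver the excess of CASTxCAST and PWKxPWK over WSBxWSB rested on the run of 6 WSBxWSB males. Without it, which leaves 1 WSBxWSB male in liver and lung, CASTxCAST against WSBxWSB gave 0 higher and 1 lower in liver (median -0.32), and PWKxPWK against WSBxWSB 0 higher and 4 lower (median -0.40). In lung the same omission left 5 higher and 2 lower for CASTxCAST and 13 higher and 2 lower for PWKxPWK. In kidney those 6 animals are all the WSBxWSB males, so the comparison could not be made without them. Without the PWKxPWK run of 4 animals, PWKxPWK against WSBxWSB gave 0 calls in liver, 7 higher and 2 lower in kidney, and 15 higher and 3 lower in lung. Without that run CASTxCAST was higher than PWKxPWK for 13 genes in liver (median 0.73), and gave 16 higher and 1 lower in kidney and 8 higher and 4 lower in lung.

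Markers of other cell types were read beside these counts. The shares of all genes called in the same strain comparisons, given above, are their background. In kidney the called shares of hepatocyte and erythroid markers lay near it. In kidney, hepatocyte markers gave 0 higher and 3 lower of 7 in CASTxCAST than in WSBxWSB, with Apob at -3.10 ± 0.22, and 1 higher and 2 lower in PWKxPWK, with Apob at -2.81 ± 0.22. Erythroid markers in kidney gave 3 higher and 1 lower of 10 in CASTxCAST and 4 and 0 in PWKxPWK. In liver, macrophage markers gave 1 higher and 8 lower of 9 in CASTxCAST (median -0.55) and 1 and 5 in PWKxPWK, and B cell markers 4 and 0 of 7 and 3 and 1. In lung, T cell markers gave 0 higher and 6 lower of 7 in CASTxCAST and 0 and 5 in PWKxPWK, endothelial markers 0 and 5 of 7 and 1 and 6, and alveolar markers 0 and 3 of 6 and 5 and 0. The part of these cells in the strain differences was not tested.

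Values of single genes follow by role. Among the kinases, lung Bub1b (BubR1, the pseudokinase that arms the spindle checkpoint) had 7.40, 7.80 and 8.26 log2 in 12 PWKxPWK arrays (lowest, median, highest), against 5.59, 6.19 and 6.71 in 12 WSBxWSB arrays. The groups did not overlap, the difference was 1.6 ± 0.09 log2 (SE, adjusted p = 3.99e-28), and without the run of 6 WSBxWSB males it was 1.43. CASTxCAST lungs had 6.53, 6.76 and 7.17, and lay below PWKxPWK by -1.06 ± 0.10 (adjusted p = 9.02e-17). Bub1b averaged 7.24 and 7.33 in PWKxWSB and WSBxPWK lungs, 7.25 and 7.31 in CASTxPWK and PWKxCAST lungs and 6.56 and 6.66 in CASTxWSB and WSBxCAST lungs, each pair between the means of its parents (7.85 in PWKxPWK, 6.79 in CASTxCAST and 6.23 in WSBxWSB). In kidney Bub1b was higher in PWKxPWK than in WSBxWSB by 0.99 ± 0.14 (adjusted p = 1.16e-09) and lower in CASTxCAST than in PWKxPWK by -0.71 ± 0.14 (adjusted p = 1.27e-05).

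Of the cytokinesis genes, lung Anln had 7.70, 8.07 and 8.29 log2 in CASTxCAST, against 6.45, 6.85 and 7.12 in WSBxWSB. These ranges did not overlap either, and the difference was 1.14 ± 0.09 (SE, adjusted p = 5.18e-20; 1.16 without the run of 6 males). Kidney Ect2 was lowest in PWKxPWK, at 6.45, 7.31 and 7.81, against 7.72, 7.89 and 8.21 in CASTxCAST and 7.37, 7.84 and 8.47 in WSBxWSB. In Ect2, CASTxCAST lay above PWKxPWK by 0.69 ± 0.13 (adjusted p = 5.07e-06) and PWKxPWK below WSBxWSB by -0.65 ± 0.13 (adjusted p = 1.02e-05), the one member called lower in PWKxPWK in that tissue. Brain Spag5 had 5.26, 5.66 and 6.09 in CASTxCAST, against 6.18, 6.44 and 6.69 in PWKxPWK, 2 ranges that did not meet, with a difference of -0.69 ± 0.11 (adjusted p = 4.25e-07).

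Replication genes differed as well. Kidney Mcm6 had 8.04, 8.39 and 8.61 log2 in CASTxCAST, against 6.90, 7.32 and 8.06 in WSBxWSB, ranges that overlapped only at their ends. The difference was 0.98 ± 0.10 (SE, adjusted p = 3.03e-15). Liver Rrm2 had 8.28, 9.45 and 9.89 in CASTxCAST, against 6.72, 7.28 and 9.13 in WSBxWSB, a difference of 1.37 ± 0.21 (adjusted p = 4.58e-08) that came to 0.61 (adjusted p = 0.148) without the run of 6 WSBxWSB males. Lung Mcm3 ran the other way, lower in CASTxCAST by -0.30 ± 0.07 (adjusted p = 0.000134) and in PWKxPWK by -0.31 ± 0.07 (adjusted p = 3.55e-05) than in WSBxWSB. In brain E2f1, the transcription factor of S-phase genes, had 7.69, 7.84 and 7.92 in 6 PWKxPWK arrays, against 7.14, 7.34 and 7.58 in 11 WSBxWSB arrays, with a difference of 0.47 ± 0.07 (adjusted p = 2.90e-08). Differences in the genome between the strains can fall under array probes, and the probes were not compared with strain sequence here.

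Mki67, Top2a, Ccnb2, Pcna and Mcm2 were followed across comparisons. Kidney Mki67 was higher in CASTxCAST than in WSBxWSB by 0.83 ± 0.21 log2 (SE, adjusted p = 0.000623) and in PWKxPWK by 0.64 ± 0.21 (adjusted p = 0.0074), the second being 0.155 (adjusted p = 0.621) without the PWKxPWK run of 4. In liver the Mki67 differences were 0.76 ± 0.28 (adjusted p = 0.0252) and 0.65 ± 0.30 (adjusted p = 0.0815). Without the run of 6 WSBxWSB males the CASTxCAST difference in liver Mki67 changed sign, to -0.322 (adjusted p = 0.633). Kidney Ccnb2 was higher in CASTxCAST than in WSBxWSB by 0.96 ± 0.19, Top2a by 0.58 ± 0.21, Mcm2 by 0.41 ± 0.08 and Pcna by 0.21 ± 0.06 (adjusted p from 1.96e-05 to 0.0192). The Top2a call was lost without a run of 3 WSBxWSB females (0.510, adjusted p = 0.0794) and with runs as a random block (adjusted p = 0.0547). Pcna did not follow the others in PWKxPWK, where it was lower than in WSBxWSB in lung (-0.17 ± 0.06, adjusted p = 0.00966) and brain (-0.29 ± 0.08, adjusted p = 0.00214). Both Pcna calls could be lost by leaving out 1 run: brain gave -0.242 (adjusted p = 0.0555) without the PWKxPWK run of 4, and lung -0.103 (adjusted p = 0.18) without another PWKxPWK run.

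The second comparison set both reciprocal F1 crosses against the mid-parent value, the mean of their 2 inbred parents. In liver all 39 members were higher in the F1 of PWK and WSB than at mid-parent and none was lower, where 5.18% of all genes were called higher and 10% in either direction. The median excess was 0.84 log2 (range 0.27 to 1.42, all genes -0.02). In lung 27 were higher and 0 lower (25.8% of all genes called, 14.3% higher; median 0.31), in kidney 7 and 0 (22.4%; median 0.17), and in brain 0 and 2 (5.89%). The F1 of CAST and WSB gave 2 higher and 0 lower in liver (15%), 5 and 0 in lung (20.2%), 2 and 0 in kidney (26.5%) and 2 and 0 in brain (22.6%). The F1 of CAST and PWK gave 0 calls in liver by limma (10.6% of all genes called; 0 members at an unadjusted p under 0.05), 0 higher and 3 lower in lung (12.9%), 1 and 0 in kidney (20.1%) and 2 and 1 in brain (10.1%). The F-test over the 3 F1 pairs together called 38 members in liver (22.8% of all genes), 30 in lung (33.7%), 6 in kidney (35.3%) and 8 in brain (28.1%; 7 without the 2 arrays that go against their sex label). With runs as a random block it called 34 in liver, 12 in lung, 1 in kidney and 3 in brain.

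By role, the median liver excess of the PWK and WSB hybrids was 0.42 log2 over 9 replication genes, 1.0 over 10 cyclins and kinases, 0.82 over 10 chromosome genes and 1.03 over 8 spindle genes. Ccna2 had 7.11, 10.13 and 10.49 log2 in PWKxWSB (n = 12) and 8.40, 10.05 and 10.85 in WSBxPWK (n = 12), against 7.19, 8.49 and 10.40 in PWKxPWK (n = 9) and 5.93, 6.99 and 9.96 in WSBxWSB (n = 13). The hybrid medians lay above both parental medians, but the ranges overlapped, and the excess was 1.42 ± 0.21 (SE, limma adjusted p = 2.03e-07). Mki67 had 5.69, 8.79 and 9.50 in PWKxWSB and 7.06, 8.77 and 9.46 in WSBxPWK, against 6.28, 6.95 and 9.01 in PWKxPWK and 5.35, 6.24 and 8.50 in WSBxWSB. Its excess was 1.13 ± 0.21 (adjusted p = 2.39e-05), that of Top2a 1.37 ± 0.21 (adjusted p = 5.07e-07) and that of Ccnb2 1.01 ± 0.21 (adjusted p = 0.000209). Of the S-phase genes, Mcm2 was higher by 0.42 ± 0.11 (adjusted p = 0.00536) and Pcna by 0.27 ± 0.06 (adjusted p = 0.000275), with Pcna means of 10.90 and 10.97 in PWKxWSB and WSBxPWK, against 10.63 and 10.69 in PWKxPWK and WSBxWSB.

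By sex, the score means stood as follows, with the liver array against its sex label kept among the PWKxWSB males. Female liver scores averaged 0.71 in PWKxWSB and 0.14 in WSBxPWK, against -0.60 in PWKxPWK and -0.01 in WSBxWSB, and male scores 0.16 and 0.98 in those hybrids, against 0.37 and -1.14 in those parents. The excess over mid-parent depended on single runs in size and in calls. Without the run of 6 WSBxWSB males all 39 differences stayed above 0 with a median of 0.43, but Melk (maternal embryonic leucine zipper kinase) alone was called. Without the PWKxWSB run of 7 animals 22 were called (median 0.66), and without the PWKxPWK run of 4 all 39 (median 1.19). With runs as a random block 35 of the 39 were called.

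In lung the largest called excess was that of Cdk1, with means of 8.25 and 8.42 log2 in PWKxWSB and WSBxPWK, against 8.01 and 7.40 in PWKxPWK and WSBxWSB (0.61 ± 0.10, SE, adjusted p = 1.24e-06). Per array, lung Cdk1 had 7.60, 8.33 and 8.73 in PWKxWSB and 7.74, 8.44 and 9.13 in WSBxPWK, against 7.15, 7.74 and 8.95 in PWKxPWK and 6.93, 7.34 and 7.90 in WSBxWSB. The hybrids overlapped both parents, and most of all PWKxPWK. In place of the 27 lung calls there were 7 without the run of 6 WSBxWSB males, 3 without the PWKxWSB run of 7 and 34 without the PWKxPWK run of 4. In kidney Cdk1 again had the largest called excess, 0.51 ± 0.12 (adjusted p = 0.000492), and the 7 calls became 0 without the PWKxWSB run and 27 without the PWKxPWK run. For the hybrids of CAST and WSB, liver Ccnb2 was above mid-parent by 0.68 ± 0.21 (adjusted p = 0.0126). Without the run of 6 WSBxWSB males their counts were 0 higher and 1 lower in liver and 0 calls in lung.

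**Figure D2:**
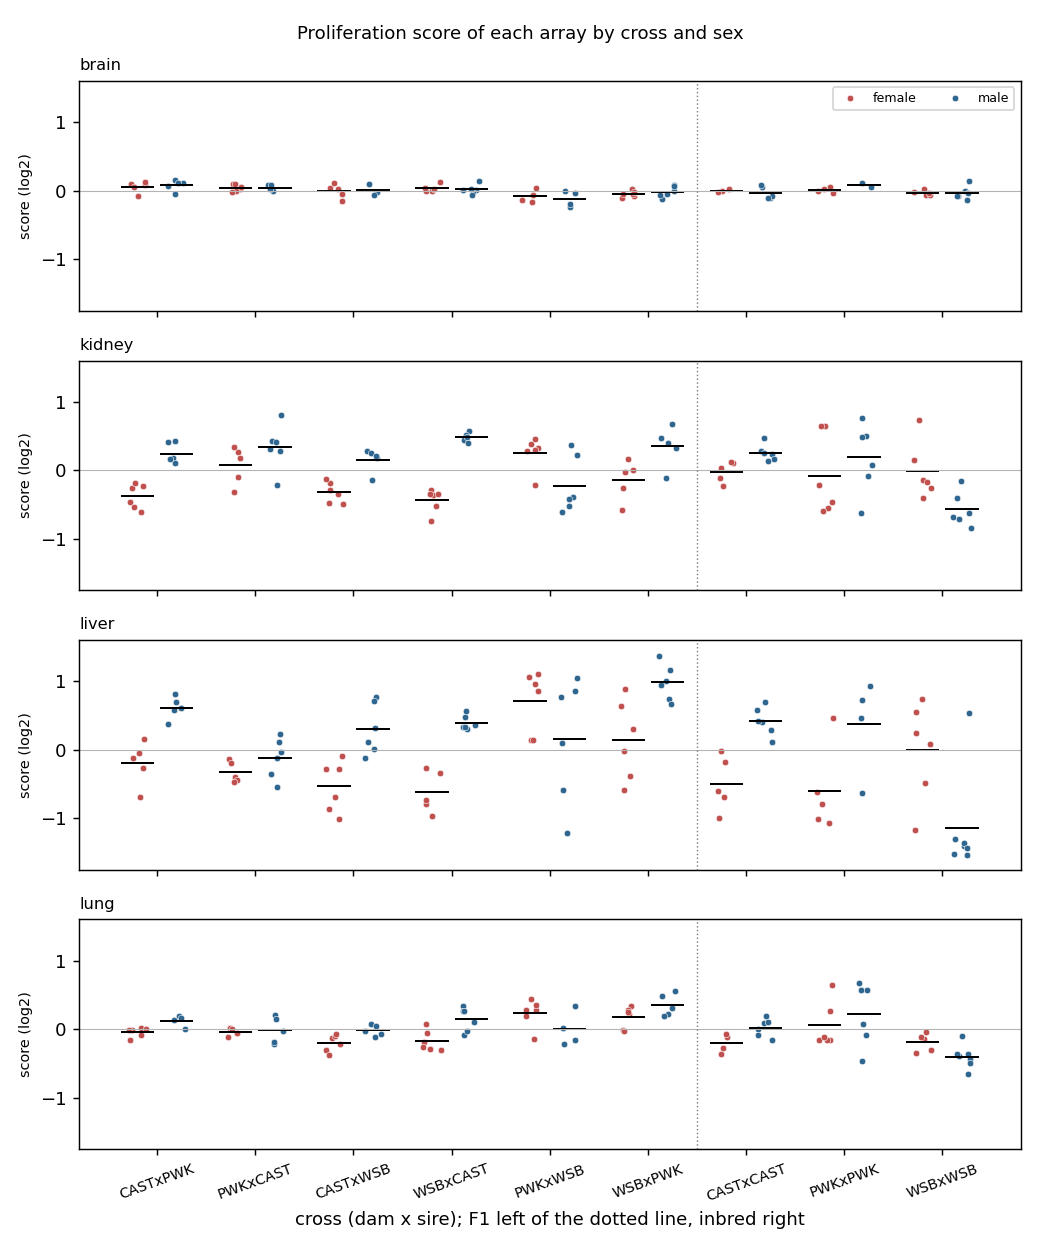
Member score (mean over 39 genes of the log2 value minus the gene's tissue mean, vertical axis) of every array in each tissue, by cross, with the 6 F1 crosses left of the 3 inbred strains and females left of males. In liver the score spans -1.54 to 1.37, the PWKxWSB and WSBxPWK means are 0.44 and 0.56, and WSBxWSB has a low group of males; in brain it spans -0.24 to 0.16.

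Cell cycle genes outside the member list were set against mid-parent in the same liver fit. Of 41 other replication and G1/S genes 31 were higher and 0 lower in the hybrids of PWK and WSB (median 0.38), among them E2f8 (1.14 ± 0.16, adjusted p = 3.85e-08) and E2f7 (0.56 ± 0.09, adjusted p = 1.36e-06), atypical E2F repressors that are themselves made in S phase. Of 56 other mitosis genes 50 were higher and 1 lower (median 0.65), with Esco2, a cohesin acetyltransferase, at 1.54 ± 0.21 (adjusted p = 8.17e-09). Of 5 G1 cyclins and kinases 0 were higher and 1, Ccnd3, lower (-0.14 ± 0.05, adjusted p = 0.0394). Of 15 inhibitors and brakes 2 were higher, Cdkn2c at 0.50 ± 0.09 (adjusted p = 4.52e-05) and the pocket protein gene Rbl1 at 0.56 ± 0.12 (adjusted p = 0.000643), and 1 was lower. Of 8 DREAM subunits 3 were higher, including Lin9 (0.34 ± 0.08, adjusted p = 0.00136).

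Markers of other cells that a young liver can hold were read beside this result. Of 10 erythroid markers 1 was higher and 1 lower (median -0.00), Car1 by 1.23 ± 0.13 and Tfrc by -0.43 ± 0.13. Granulocyte precursor markers gave 0 higher and 2 lower of 10, macrophage markers 0 and 6 of 9 (median -0.16), endothelial markers 0 and 4 of 7, B and T cell markers 0 and 0 of 7 each, hepatocyte markers 2 and 0 of 7, and fetal liver genes 1 and 2 of 7. Over liver arrays, with cross and sex means removed, the score had a correlation of 0.24 with the erythroid and 0.20 with the macrophage marker mean. The part of these cells in the result was not tested.

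The third comparison set reciprocal F1 crosses, which differ in which strain was the dam, against each other. By limma's F-test 0 members differed in brain (0.712% of all genes did; 4 members at an unadjusted p under 0.05), 0 in kidney (3.9%; 11 unadjusted), 0 in liver (7.66%; 5 unadjusted) and 4 in lung (23.4%), namely Bub1, Mcm3, Mcm6 and Pcna. Lung Bub1, a spindle checkpoint kinase, had 4.89, 5.31 and 5.60 log2 in CASTxWSB, against 5.05, 5.71 and 5.94 in WSBxCAST, overlapping groups with a difference of -0.34 ± 0.12 (SE, adjusted p = 0.0376). In that pair 0 members were higher and 5 lower, against 22.6% of all genes called. In liver all 39 differences between CASTxPWK and PWKxCAST were above 0 (median 0.45), but 1 was called, E2f1 at 0.57 ± 0.18 (adjusted p = 0.0433; 4.50% of all genes called), and 17 reached an unadjusted p under 0.05. In kidney the same pair ran the other way, 38 of 39 differences below 0 (median -0.25), with Cenpf, a kinetochore protein, called at -0.43 ± 0.12 (adjusted p = 0.0333; 1.66% of all genes). No member was called in the other pairs by limma: CASTxPWK and PWKxCAST in brain (0.0744% of all genes, 1 member at an unadjusted p under 0.05) and lung (0.420%, 2), CASTxWSB and WSBxCAST in brain (0.367%, 1), kidney (1.2%, 1) and liver (2.86%, 0), and PWKxWSB and WSBxPWK in brain (0.128%, 6), kidney (0.627%, 1) and liver (0.723%, 0). Mcm6 was lower in PWKxWSB than in WSBxPWK lung by -0.21 ± 0.06 (adjusted p = 0.0326; 4.79% of all genes).

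These reciprocal calls did not hold with runs as a random block: the F-test then called 0 members in each tissue, and the differences in lung Bub1, Mcm6 and Pcna, liver E2f1 and kidney Cenpf had adjusted p from 0.0952 to 0.569. Leaving out single runs, the lung count was 0 without a WSBxCAST run of 9 and 10 without the PWKxWSB run of 7, and the liver count was 4 without that PWKxWSB run. Lung Pcna was lower in CASTxWSB than in WSBxCAST by -0.18 ± 0.06 (SE, adjusted p = 0.0153). Mki67, Top2a, Ccnb2 and Mcm2 were not called in any reciprocal pair or tissue. Of these, kidney Mki67 in CASTxPWK against PWKxCAST had the smallest adjusted p (-0.65 ± 0.21, adjusted p = 0.0985).

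Mean signals of most members differed by sex in liver and kidney. Over all crosses, 33 members were lower in female than in male livers and 0 higher (32 without the 2 arrays that go against their sex label), where 7.85% of all genes were called and 3.07% were lower in females, with a median of -0.46 log2. In kidney 35 were lower and 0 higher (8.07% of all genes called, 3.82% lower; median -0.25). In lung 0 were higher and 1 lower (1.62%; median -0.09), and in brain 0 and 0 by limma (0.0638%; 2 members at an unadjusted p under 0.05). Liver Cdc20 had 5.99, 7.33 and 9.01 log2 in 49 females, against 6.05, 8.26 and 9.48 in 52 males. The ranges overlapped almost entirely while the male median was higher, and the difference was -0.79 ± 0.13 (SE, adjusted p = 3.65e-06). Mki67 had 6.24, 7.40 and 9.50 in female livers, against 5.35, 8.32 and 9.48 in male livers (-0.57 ± 0.14, adjusted p = 0.00231), and 5.47, 6.65 and 7.96 in female kidneys, against 5.64, 7.29 and 8.53 in male kidneys (-0.42 ± 0.10, adjusted p = 0.00259). Top2a was lower in female livers by -0.53 ± 0.14 (adjusted p = 0.00716) and in female kidneys by -0.42 ± 0.10 (adjusted p = 0.00274), and Ccnb2 by -0.46 ± 0.14 (adjusted p = 0.0223) and -0.29 ± 0.09 (adjusted p = 0.0366).

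By role, all 10 cyclins and kinases, 9 of 10 chromosome genes, 6 of 8 spindle genes, Cdc20, E2f1 and 6 of 9 replication genes were called lower in female livers. Anln, Ect2, Ndc80, Mcm2, Mcm6 and Pcna were not, with Pcna at -0.10 ± 0.04 (adjusted p = 0.0796) and Mcm2 at -0.18 ± 0.08 (adjusted p = 0.146). In female kidneys all 9 replication genes, all 10 chromosome genes, 9 of 10 cyclins and kinases, 5 of 8 spindle genes, Cdc20 and E2f1 were called lower, Pcna at -0.13 ± 0.03 (adjusted p = 0.000501) and Mcm2 at -0.18 ± 0.04 (adjusted p = 0.000899). In lung the one call was Plk1, with 6.43, 6.96 and 7.88 in females, against 6.6, 7.2 and 8.0 in males (-0.22 ± 0.05, adjusted p = 0.0184). Of the other lists, 49 of 56 other mitosis genes and 21 of 41 other replication genes were lower in female livers and 0 higher, and 34 and 17 in female kidneys. Ccnd1, the cyclin of early G1, was higher in female livers by 0.19 ± 0.05 (adjusted p = 0.0129) and lower in female kidneys by -0.12 ± 0.02 (adjusted p = 6.74e-05).

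Markers of other cell types were read beside these counts. In liver 2 of 10 erythroid markers were lower in females (Car1 by -0.53 ± 0.09, Alas2 by -0.25 ± 0.05) and 2 of 9 macrophage markers higher, and in kidney 0 of 10 erythroid, 0 of 9 macrophage and 0 of 6 proximal tubule markers were called. The part of these cells in the sex difference was not tested.

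How far the sex difference varied with the cross depended on the tissue and on single runs. An F-test of sex by cross, added after the data had been seen, called 38 members in liver (4.37% of all genes), 35 in kidney (3.29%), 7 in lung (11.4%) and 0 in brain (0.340%; 1 member at an unadjusted p under 0.05). Without the run of 6 WSBxWSB males it called 7 in liver and 0 in lung, and leaving out other single runs gave 30 to 37 in kidney. A random block for runs left 35 liver, 32 kidney, 1 lung and 0 brain calls. The score was lower in females in 7 of 9 crosses in liver, kidney and lung and in 4 of 9 in brain. In liver the female mean minus the male mean ran from -1.01 to 1.14 (median -0.83), and the crosses that went against the rest were PWKxWSB (0.71 in females, 0.16 in males) and WSBxWSB (-0.01 in females, -1.14 in males). The PWKxWSB male mean includes the liver array that goes against its sex label. CASTxCAST females had 6.55 to 7.29 log2 of liver Mki67, against 8.10 to 8.82 in CASTxCAST males, with no overlap. WSBxWSB females had 6.24 to 8.50, against 5.35 to 8.32 in males, 6 of these 7 males being the run of low scores. Without that run 1 liver array stands for the WSBxWSB males, also in the F-test count without it above. Within runs that held both sexes, the score was lower in females in 9 of 12 runs in liver (median -0.31), 8 of 12 in kidney (-0.33), 9 of 13 in lung (-0.09) and 6 of 12 in brain, and no CASTxCAST run held both.

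Tested on the difference between tissues of the same animals, the female minus male difference was lower in liver than in lung for 20 members (3.87% of all genes called; Cdc20 by -0.71 ± 0.13, SE, adjusted p = 4.23e-05) and lower in kidney than in lung for 11 (2.93%; Mki67 by -0.34 ± 0.09, adjusted p = 0.0172). It was higher in brain than in liver for 13 (2.07%) and than in kidney for 12 (1.24%), and differed between kidney and liver for 2 (7.60%; Spag5 by 0.50 ± 0.10, adjusted p = 0.000365). Between brain and lung 0 were called by limma (0.0744%; 13 at an unadjusted p under 0.05). Without the PWKxWSB run of 7 the liver and lung count was 10 and the kidney and lung count 2, and without the run of 6 WSBxWSB males the liver and lung count was 34. It was 17 without the 2 arrays that go against their sex label.

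**Figure D3:**
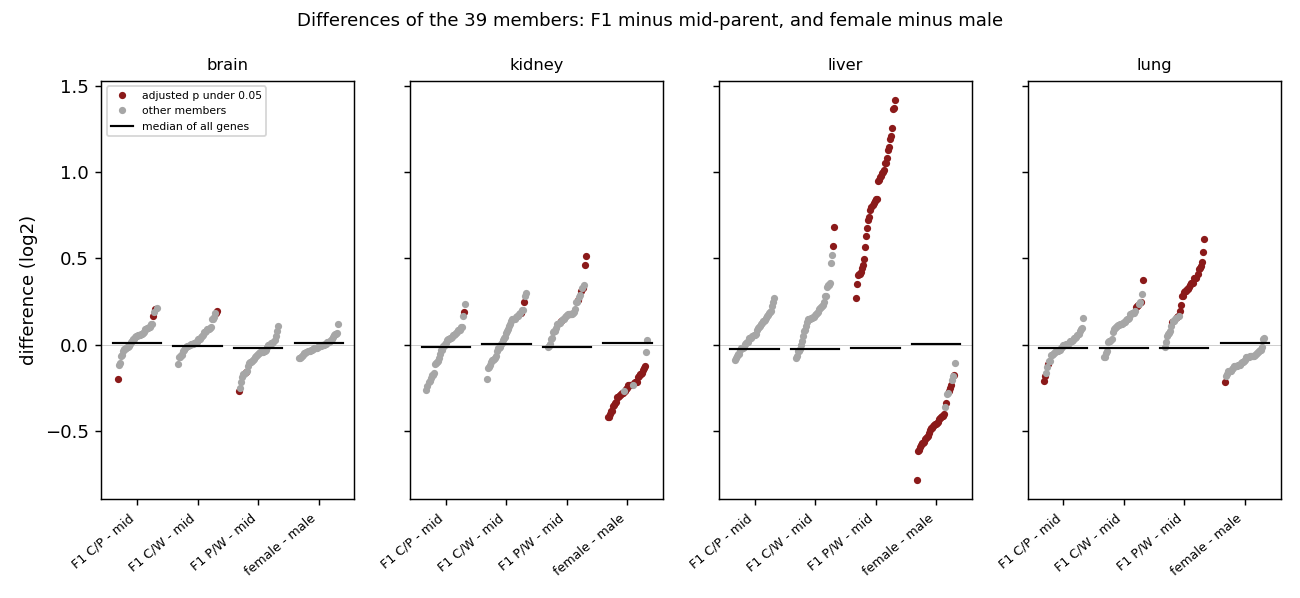
Difference in log2 signal (vertical axis) of each of the 39 genes (points) per tissue, for the F1 of CAST and PWK, of CAST and WSB and of PWK and WSB minus mid-parent and for female minus male. All 39 points of the PWK and WSB hybrids lie above 0 in liver, between 0.27 and 1.42, and all 39 of female minus male below 0 in liver, between -0.79 and -0.10.

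The last comparison followed the members across tissues of the same animal. With cross and sex means removed, 35 members covaried between kidney and liver (95 animals; median r 0.58, all genes 0.04; 2.86% of all genes called), 28 between kidney and lung (93 animals; median 0.42, all genes 0.03; 3.2%) and 22 between liver and lung (92 animals; median 0.39, all genes 0.02; 2.25%). For brain the linear model called none: 0 members with kidney (78 animals; median 0.05; 0.228% of all genes called), 0 with liver (76; 0.11; 0.0956%) and 0 with lung (74; 0.11; 0.287%), although Ccnb2 reached an unadjusted p of 0.00237 between brain and kidney (r = 0.38, adjusted p = 0.414). The family held 234 relations, 39 genes in 6 tissue pairs, and p-values were adjusted over all 18820 genes of a pair.

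The 3 genes of highest r in each pair were mitotic. Between kidney and liver, Ccna2 had r = 0.71 and rho = 0.64 (permutation p = 1e-05 for each, the smallest that 100000 permutations can give; adjusted p = 1.50e-10) and r = 0.66 without the 2 animals farthest from the median. Aurkb, the kinase of the chromosomal passenger complex, had r = 0.69 and rho = 0.63 (adjusted p = 1.52e-09), and Top2a r = 0.67 and rho = 0.60 (adjusted p = 1.12e-08). Between kidney and lung, Racgap1, the partner of Kif23 in centralspindlin, and Plk1 both had r = 0.70 and rho = 0.66 (adjusted p = 7.03e-10 and 7.48e-10). Cdca8, the borealin subunit of the passenger complex, followed with r = 0.64 and rho = 0.58 (adjusted p = 1.15e-07). Between liver and lung, Kif23 had r = 0.62 and rho = 0.49 (permutation p = 3e-05 and 7e-05, adjusted p = 1.38e-06), Top2a r = 0.58 and rho = 0.46 (adjusted p = 1.71e-05), and Prc1, which bundles microtubules at the spindle midzone, r = 0.55 and rho = 0.47 (adjusted p = 7.52e-05). Mki67 had r = 0.64, 0.60 and 0.54 in the 3 pairs, and Ccnb2 0.63, 0.63 and 0.51. Mcm2 had 0.60, 0.50 and 0.32, the last not called (adjusted p = 0.128). Pcna was not called in any pair, with r = 0.18, 0.00 and 0.23, and the lowest r between kidney and liver was that of Spag5, 0.04.

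**Figure D4:**
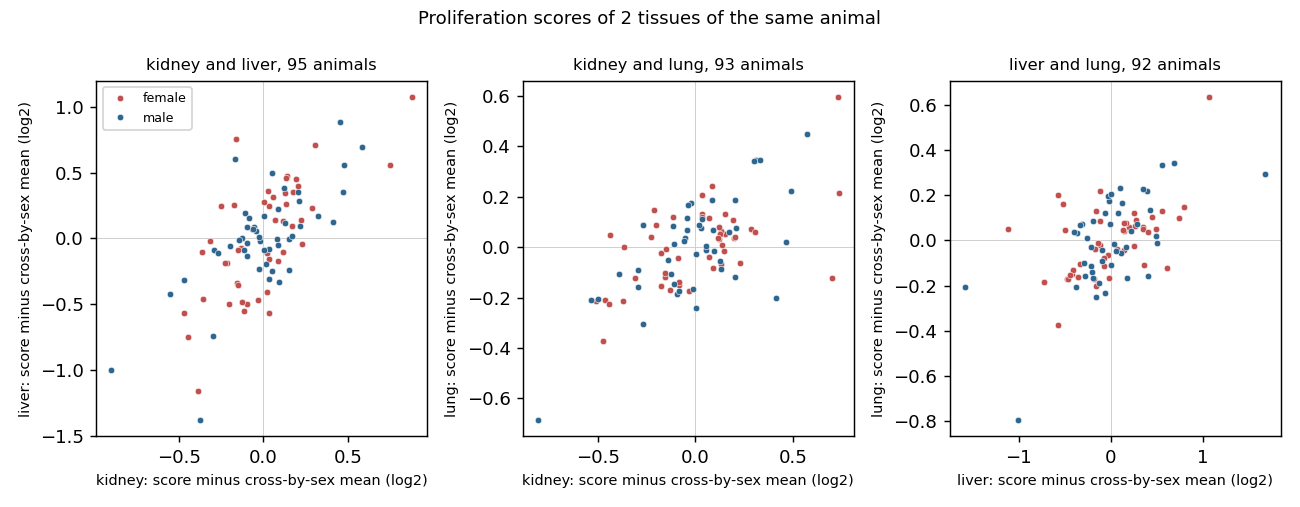
Member score of the same animals in 2 tissues, with the mean of each cross and sex removed, for kidney and liver, kidney and lung, and liver and lung (log2 units on both axes, females and males marked). Points are animals (95, 93 and 92); the correlations are 0.69, 0.64 and 0.56.

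The member score had r = 0.69 and rho = 0.62 between kidney and liver (0.69 in 47 females, 0.70 in 48 males), r = 0.64 between kidney and lung and r = 0.56 between liver and lung, and 0.17 to 0.31 in the pairs with brain. These are descriptions and carry no test. The medians of the arrays themselves had correlations of -0.12, -0.03 and -0.08 in the 3 pairs without brain, with the same means removed, and brain medians had -0.00 with kidney, -0.11 with liver and 0.36 with lung. Part of the covariation lay between runs: with the means of each run and sex removed, r of the score was 0.38, 0.37 and 0.26. The calls fell to 2, 5 and 0 members, in 85, 83 and 79 animals. Calls over all genes fell as well, to 0.51%, 0.882% and 0.654%. The medians over members were then 0.26, 0.22 and 0.16 (all genes 0.025, 0.018 and 0.041). The 2 genes called between kidney and liver were Ccna2 (r = 0.52, adjusted p = 0.00904) and Bub1b (r = 0.46), and Racgap1 had the highest r between kidney and lung (0.59, adjusted p = 0.000547). Hepatocyte marker signal ranged from 5.46 to 11.23 log2 over kidney arrays, and its correlation with the kidney score within cross and sex was -0.34. In lung it ranged from 6.58 to 12, with a correlation of -0.02. The part of that signal in the covariation was not tested.

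**Figure D5:**
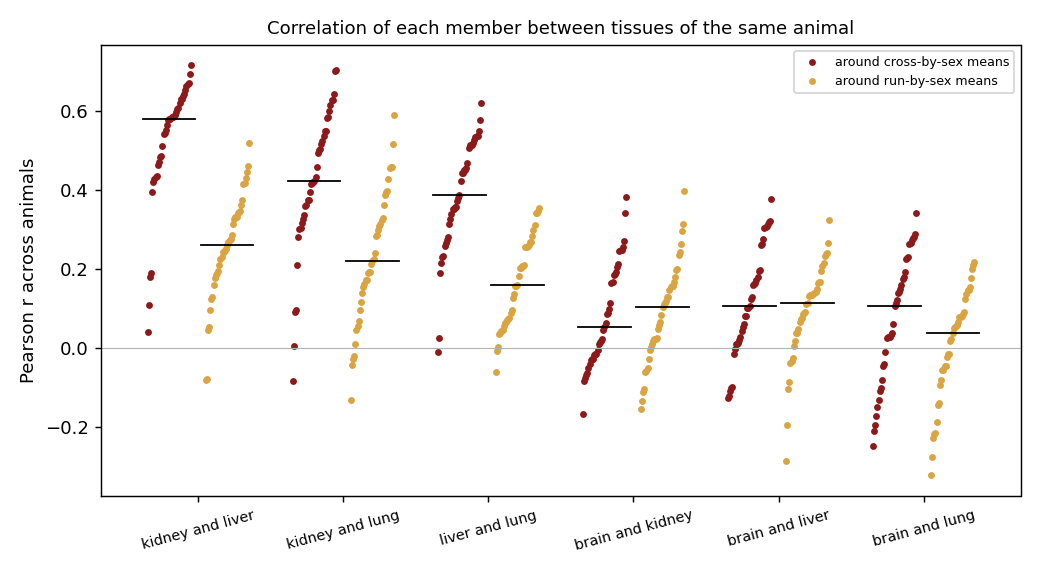
Pearson correlation between tissues of the same animals for each of the 39 genes (points), by tissue pair, with the means of each cross and sex removed and with the means of each run and sex removed. The medians of the 3 pairs without brain are 0.58, 0.42 and 0.39 in one setting and 0.26, 0.22 and 0.16 in the other.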

How the data were processed

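The authors deposited 1 table of log2 values, 35556 probe clusters by 386 arrays, made with RMA in Affymetrix Expression Console, per the submitters' processing notes (versions not stated). RMA corrects background, normalises arrays to each other by quantiles and summarises probes, which reduces shifts of whole arrays. Array medians still lay between 5.89 and 6.36. The array annotation was given for this work: 21218 clusters had 1 symbol, 1881 several and 12457 none, and the 18820 genes are the cluster of highest mean per symbol. The members and gene lists were chosen with earlier results of these data known.

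Samples were grouped by the labels and titles (cross, sex, tissue, animal). Per tissue, 18 cross-by-sex means were fitted with limma 3.58.1 (R 4.3.3; lmFit, contrasts.fit, eBayes with a trend), sexes weighted equally, with no filter on low values; tissues were compared in 1 fit of 36 cross-by-tissue means. Differences are contrasts of these means, so they need not equal differences of plain averages. All p-values were Benjamini-Hochberg adjusted over 18820 genes, and called means an adjusted p under 0.05. Covariation was a linear model per gene with the same means, and 100000 permutations within cross and sex for members (numpy 2.4.6, scipy 1.17.1). Replicates are separate animals per the titles; animals of 1 run may share more than their cross. The fits were tested on simulated data with no effect of runs, so those tests do not show how the fits behave where runs differ. The rule for named genes was, per tissue and comparison, the called members with the highest and lowest difference (for tissues 2 each way, for covariation the 3 highest r) and Mki67, Top2a, Ccnb2, Pcna and Mcm2; for other lists, up to 2 called genes of smallest p. The text prints a part of the genes this rule names. Alternatives were a filter at the 40th percentile, array centring, the mean of all clusters of a symbol, array weights, additive cross and sex, runs or animals as a random block, leaving out each run or the 2 arrays against their sex label, only animals with 4 tissues, and ranks. Where the animal was a random block over tissues, its correlation was 0.031. No 2 arrays were the same; the highest correlation between any was 0.9952.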

Additional observations from a re-analysis of the deposited data

Results flagged for a closer look

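The difference between females and males changed with the cross for 35 members in kidney (3.29% of all genes called), 38 in liver (4.37%) and 7 in lung (11.4%), by an F-test of sex by cross. Without the run of 6 WSBxWSB males the counts were 7 in liver and 0 in lung, and with runs as a random block 32, 35 and 1. In liver the female minus male score was negative in 7 of 9 crosses and positive in PWKxWSB and WSBxWSB. Between tissues of the same animals, the sex difference differed for 12 members between brain and kidney (1.24% of all genes), 13 between brain and liver (2.07%), 2 between kidney and liver (7.60%, a larger share than that of the members), 11 between kidney and lung (2.93%) and 20 between liver and lung (3.87%). Groups of a cross and tissue with 4 to 10 arrays were tested for a stray value in 6 measures (the score, Mki67, Top2a, Ccnb2, Pcna and Mcm2). In 78 tests of a group and a measure 0 stray values were found, where chance gives about 1 in 20. Larger groups, such as the WSBxWSB livers, were not tested.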

How the results depend on the processing

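Of 8836 values of single genes under an alternative, 8477 kept their direction and their side of the threshold, 245 lost the call, 107 gained it and 7 changed sign. Counts over all members that moved by more than 1.5 times were as follows. Some alternatives leave fewer genes or animals, and the cause of the moves was not tested.

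A filter at the 40th percentile left 12 members tested in brain, 7 of which differed between strains and 4 from mid-parent. Under that filter brain was called for 25 and liver for 24 of 26 members tested over all tissues, the sex difference between tissues for 7 (brain and kidney), 4 (brain and liver) and 12 (liver and lung), and covariation between liver and lung for 14. With runs as a random block the mid-parent counts were 3 in brain, 1 in kidney and 12 in lung, strains gave 12 in liver, reciprocal crosses 0 and sex by cross 1 in lung, and sex between kidney and lung 7. Additive cross and sex gave 23 for sex in kidney, 11 for strains in liver, 2, 0, 7 and 11 for sex between brain and kidney, brain and liver, kidney and lung, and liver and lung, and 34 for covariation of liver and lung. Array weights gave 1 and 9 for reciprocal crosses in kidney and lung, 31 for sex by cross and 5 for sex in lung, and 22 and 6 for sex between brain and liver and between kidney and liver. Centring arrays gave 10 for mid-parent in kidney, and 8 for reciprocal crosses and 3 for sex by cross in lung. Means of runs and sex left 2, 5 and 0 covariation calls for kidney and liver, kidney and lung, and liver and lung. The shares of all genes called were 0.51%, 0.882% and 0.654%. Taking the animal as a replicate block, the pairing given by the titles, tissue counts were 38, 27, 37 and 30 for brain, kidney, liver and lung.

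Leaving out each run in turn, counts ranged in brain, kidney, liver and lung over 10 to 13, 23 to 36, 4 to 33 and 19 to 37 for strains, 0 to 0, 0 to 3, 0 to 4 and 0 to 10 for reciprocal crosses, 3 to 9, 2 to 25, 20 to 39 and 7 to 35 for mid-parent, 0 to 0, 30 to 37, 7 to 39 and 0 to 23 for sex by cross, and 0 to 0, 21 to 37, 25 to 39 and 0 to 8 for sex. Sex between tissues ranged over 4 to 16 (brain and kidney), 2 to 28 (brain and liver), 0 to 0 (brain and lung), 1 to 4 (kidney and liver), 2 to 18 (kidney and lung) and 8 to 34 (liver and lung). A run that holds all animals of a cross and sex in a tissue could not be left out there. Without the run of 6 WSBxWSB males, liver differences changed sign between CASTxCAST and WSBxWSB for Ccnb2 (-0.099, other runs up to 1.797), Mki67 (-0.322, up to 1.115) and Top2a (-0.574, up to 1.158), between PWKxPWK and WSBxWSB for Mcm2 (-0.035, up to 0.764) and Ccnb2 (-0.209, up to 1.688), and between the F1 of CAST and WSB and mid-parent for Ccnb2 (-0.030, up to 0.918). Without the PWKxPWK run of 4, lung Top2a changed sign between CASTxCAST and PWKxPWK (0.009, other runs down to -0.738).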
